A study of Rattus norvegicus with 82 samples.

Results

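Cardiac myocytes from the left ventricle (LV) of rats in decompensated heart failure after aortic banding (AOB-F) were compared with those of sham-operated rats of the same age (Sham-F). The libraries were chosen by their sample titles, which name the AOB-F or Sham-F group and the LV, and 16 of the 82 libraries in the series met this rule: 7 from AOB-F and 9 from Sham-F animals. The rats were F1 offspring of female Wistar Kyoto and male Lewis rats. A clip that did not constrict at placement was put around the aorta of young rats, so that the load on the LV grew as the animals grew, and hearts were taken 26 weeks later at 31 weeks of age per the labels. Sham-F animals had the same stated age and interval, and 4 of the 7 AOB-F animals (replicates 1 to 4) and 4 of the 9 Sham-F animals (replicates 1 to 4) were male, the rest female. Each library came from a separate animal, and the cells were obtained by collagenase digestion of the perfused heart followed by centrifugation steps that enrich myocytes, in both groups alike. The remaining libraries used below were the right ventricle (RV) of these same animals, the LV at the compensated stage (AOB-H, 6, and Sham-H, 7, at 11 weeks of age and 7 weeks after surgery) and the RV after pulmonary artery banding at the failing stage (PAB-F, 6, at 28 weeks of age and 22 weeks after surgery). The comparison of AOB-F with Sham-F asks which genes differ in LV myocytes once a pressure-loaded heart has failed.

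A ventricle that pumps against a raised pressure thickens its walls, and its myocytes enlarge and return in part to a gene programme of the fetal heart, with natriuretic peptides and slow myosin as its best known members. Mechanical load is sensed at the Z-disc, the intercalated disc and the cell's attachment to the matrix, and reaches the nucleus through, among others, the YAP and TEAD, TGF-beta and calcineurin pathways. When the wall can no longer compensate, altered calcium handling, loss of repolarizing potassium currents, a shift away from fatty acids and inflammation are the changes most often described.

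The 16 libraries held 10634674 to 18282203 counts (median 13524452.5). The cell type stated in the labels was checked with markers: 9 ventricular cardiomyocyte genes took 6.6 to 9.24% of all counts in Sham-F and 6.25 to 9.18% in AOB-F replicates 1 to 5. AOB-F replicates 6 and 7 stood apart, at 4.06 and 4.27%, below every other library. In the same 2 libraries, which are both from females, 16 pan-leukocyte genes took 0.0274 and 0.0435% of the counts, against 0.00474 to 0.0114% in Sham-F and 0.00519 to 0.015% in the other AOB-F libraries. Macrophage and monocyte genes, 14 in number, took 0.0538 and 0.064%, against 0.00692 to 0.0249% and 0.00717 to 0.0352%. Fibroblast markers (0.152 to 0.414% in Sham-F, 0.114 to 0.479% in AOB-F) and endothelial markers (0.209 to 0.381% and 0.212 to 0.435%) overlapped between the groups, although replicate 7 had the lowest fibroblast share of the 16 libraries. Neutrophil markers (10 genes) went the other way from the leukocyte and macrophage lists, at 0.0139 and 0.0147% in replicates 6 and 7 against 0.0216 to 0.0342% in the other 14 libraries. Only 1 of these 10 genes passed the filter on low counts, so this share says little about neutrophils. Red blood cell markers were also lowest in these 2 libraries, at 0.002 and 0.00129% against 0.00438 to 0.0302%. In bulk samples such as these, fewer cells of a type and less RNA per cell cannot be told apart. Along the first principal component of the 16 libraries (26.9% of the variance), AOB-F replicates 6 and 7 lay at 54.5 and 69.7, the female AOB-F replicate 5 at 22.8, and the others between -36.9 and 12.2. For this reason the LV results of AOB-F against Sham-F below are also given without replicates 6 and 7 where that ended a call or moved a value.

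**Figure D1:**
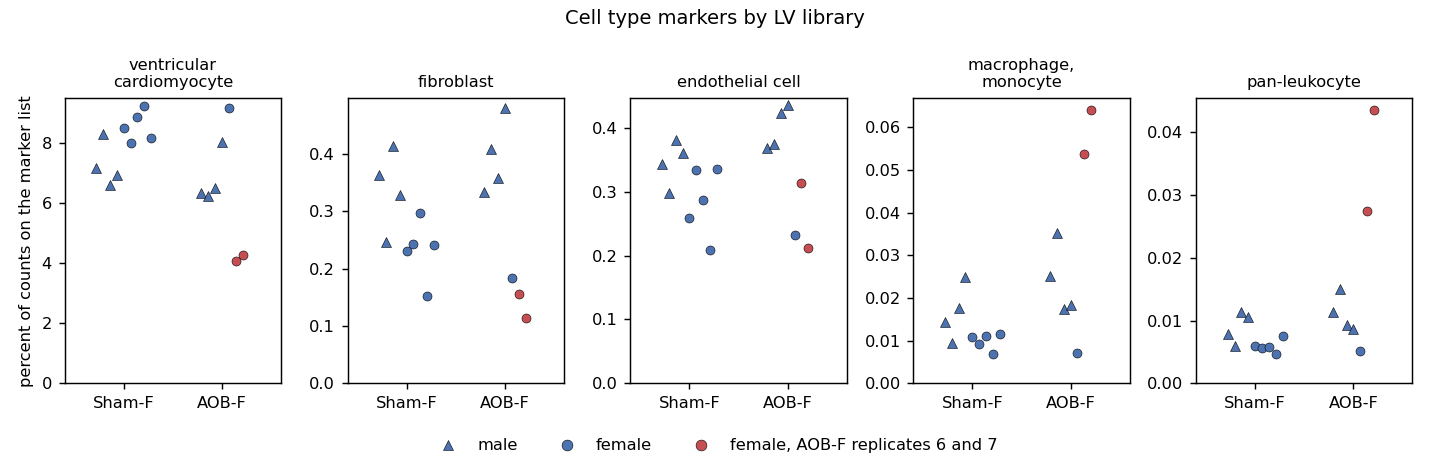
Percent of each LV library's counts that fell on 5 lists of cell type marker genes (y axis, each panel from 0) in the 9 Sham-F and 7 AOB-F libraries (x axis), with triangles for males, circles for females and red for AOB-F replicates 6 and 7. The red points sit lowest for the cardiomyocyte list, at 4.06 and 4.27%, and highest for the macrophage and pan-leukocyte lists.

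Values below are normalized counts, which are raw counts scaled by trimmed mean of M-values (TMM) factors to a common library size of 13279120, fold changes are on the log2 scale with their standard error, and adjusted p-values are from edgeR's quasi-likelihood test with Benjamini-Hochberg adjustment over 11954 genes. A gene is said to have risen or fallen where that adjusted p was under 0.05. By this measure 1021 genes rose (8.54% of those tested) and 520 fell (4.35%). These shares are the reference for the counts of list members given below. Most changes were small, with a median log2 fold change of 0.56 over the genes that rose and -0.45 over those that fell, while the median over all genes tested was 0.0378. Without AOB-F replicates 6 and 7 and over the same genes, 221 rose (1.85%) and 138 fell (1.15%). In a second fit without them, which filtered the genes anew and called 344, 187 of the 1021 and 92 of the 520 kept their call and direction. Over the genes of the main comparison, 978 of the 1021 stayed above 0 without those libraries, as did 520 of 520 below 0, with medians of 0.40 and -0.37. The genes were called with the remaining libraries included, so a kept sign is not independent support. The count of calls rests on the spread estimated from all 82 libraries of the series (70 residual degrees of freedom), where an animal's LV and RV libraries were treated as independent. In AOB-F the deviations of these 2 libraries from their group means correlated at 0.0817 to 0.592. Fitted to the 16 LV libraries alone (14 residual degrees of freedom, biological coefficient of variation 0.282 against 0.244), the test called 13 genes higher and 2 lower. These were Akip1, Ctgf, Daam1, Dram1, Ltbp2, Map1b, Myo1f, Ncam1, Steap2, Tgfa, Tgfb2, Thbs4 and Tnc, which rose, and Atp4a and Myo3b, which fell. Within males edgeR called 0 genes, with 505 at an unadjusted p under 0.05, and within females it called 2190. Both contrasts came from the same fit to the 16 libraries, with a mean per sex and group and a spread shared by the sexes.

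**Figure D2:**
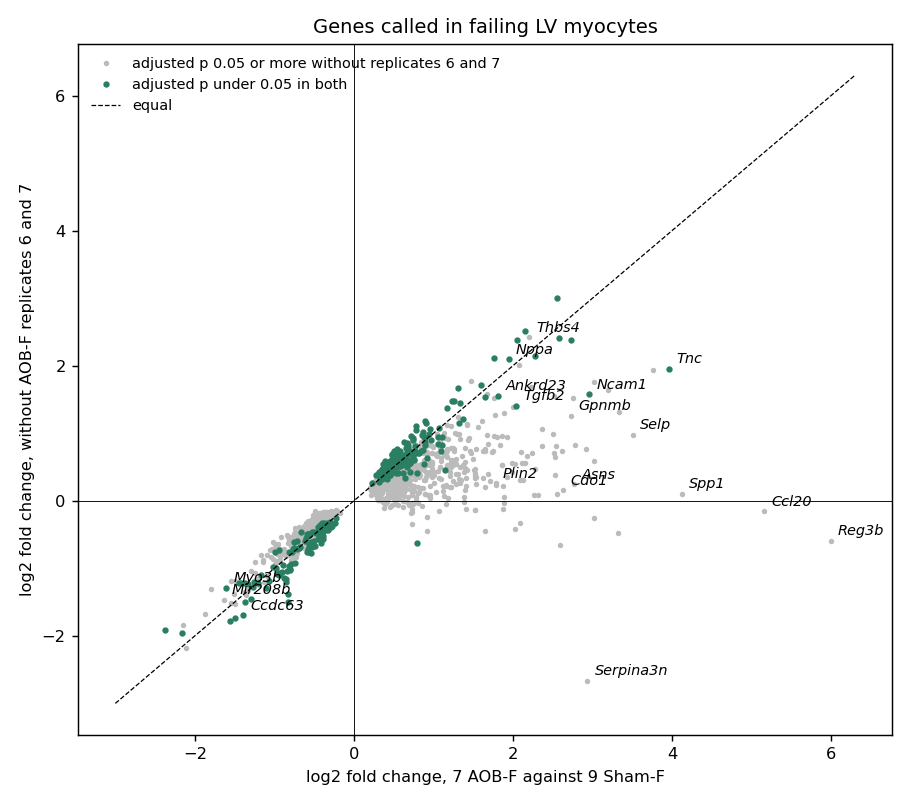
Log2 fold change of AOB-F against Sham-F in LV myocytes for the 1541 genes called with all libraries (x axis) and the same without AOB-F replicates 6 and 7 (y axis), one point a gene, green where adjusted p stayed under 0.05 and grey where it did not. Reg3b and Ccl20 lie far to the right at 6.00 and 5.16 but near or below 0 on the y axis, while Nppa and Ankrd23 lie close to the line of equal values.

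In 7 genes all 7 AOB-F libraries lay above all 9 Sham-F libraries (0.0586% of the genes tested), and in 3 genes all lay below (0.0251%). Those above were Ctgf, Thbs4, Steap2, Myo1f, Tpm2, Gtf3c6 and Sept6, and those below were Myo3b, Atp4a and Pfkfb1. Steap2, Myo1f, Tpm2, Gtf3c6 and Sept6 fell outside the rule for named genes and are named after their values were seen. Since Nppa and other genes differed between male and female sham hearts, the groups were also set side by side within each sex: 19 genes were higher in every AOB-F animal than in every Sham-F animal of its sex (0.159%), among them Nppa, Ankrd23, Tgfb2, Tgfa and Ncam1, and 15 were lower (0.125%).

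The natriuretic peptide gene Nppa, which encodes the precursor of atrial natriuretic peptide, was at levels that did not overlap between male and female sham hearts. Sham-F males had 6568 to 12454 normalized counts and Sham-F females 1919 to 3106, while AOB-F males had 20531 to 32334 and AOB-F females 4825 to 16028. The groups were separate within each sex but overlapped when sexes were pooled, because female AOB-F replicate 5, at 4825, lay under every Sham-F male. Over all animals the mean was 20967 ± 9989 (SD, n = 7) in AOB-F and 5432 ± 3998 (SD, n = 9) in Sham-F, a log2 fold change of 1.95 ± 0.51 (adjusted p = 0.00661; 2.10 and 0.025 without replicates 6 and 7). Nppb, the gene of brain natriuretic peptide, ranged from 4786 to 9763, median 7946 in Sham-F and from 6107 to 13945, median 11281 in AOB-F, with 5 of 7 above the highest sham. Its log2 fold change of 0.47 ± 0.22 did not pass the test (adjusted p = 0.128).

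Among the contractile genes of the fetal programme, Myh7, the slow beta-myosin heavy chain, had 65430 to 209734, median 88542 normalized counts in Sham-F and 105591 to 294072, median 211990 in AOB-F (0.78 ± 0.30, adjusted p = 0.0679). Myh6, the fast alpha-myosin heavy chain, had 257785 to 485456, median 349064 in Sham-F and 54736 to 456039, median 203952 in AOB-F, where the lowest values, 54736 and 76034, were those of replicates 6 and 7 (-0.69 ± 0.26, adjusted p = 0.0652). Neither myosin passed the test, and in both the groups overlapped. Mybpc2, a myosin-binding protein typical of fast skeletal muscle, rose (1.5 ± 0.26, adjusted p = 0.000112), with 150.1 to 209 in replicates 1 to 5 and 578 and 840.2 in replicates 6 and 7, against 76.7 to 172, median 109 in Sham-F. Myh7b, a slow myosin gene whose intron holds miR-499, fell by 0.93 ± 0.28 on the log2 scale (adjusted p = 0.0188). Mybpc2 and Myh7b were not called without replicates 6 and 7, where they gave 0.62 and -0.89 (adjusted p = 0.0599 and 0.0934). Of the 15 tested genes in the list of natriuretic peptides and fetal-type contractile genes, 2 rose, 1 fell and 12 did not pass (median 0.31), and none of the 14 thick and thin filament, titin and Z-disc genes passed in either direction.

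**Figure D3:**
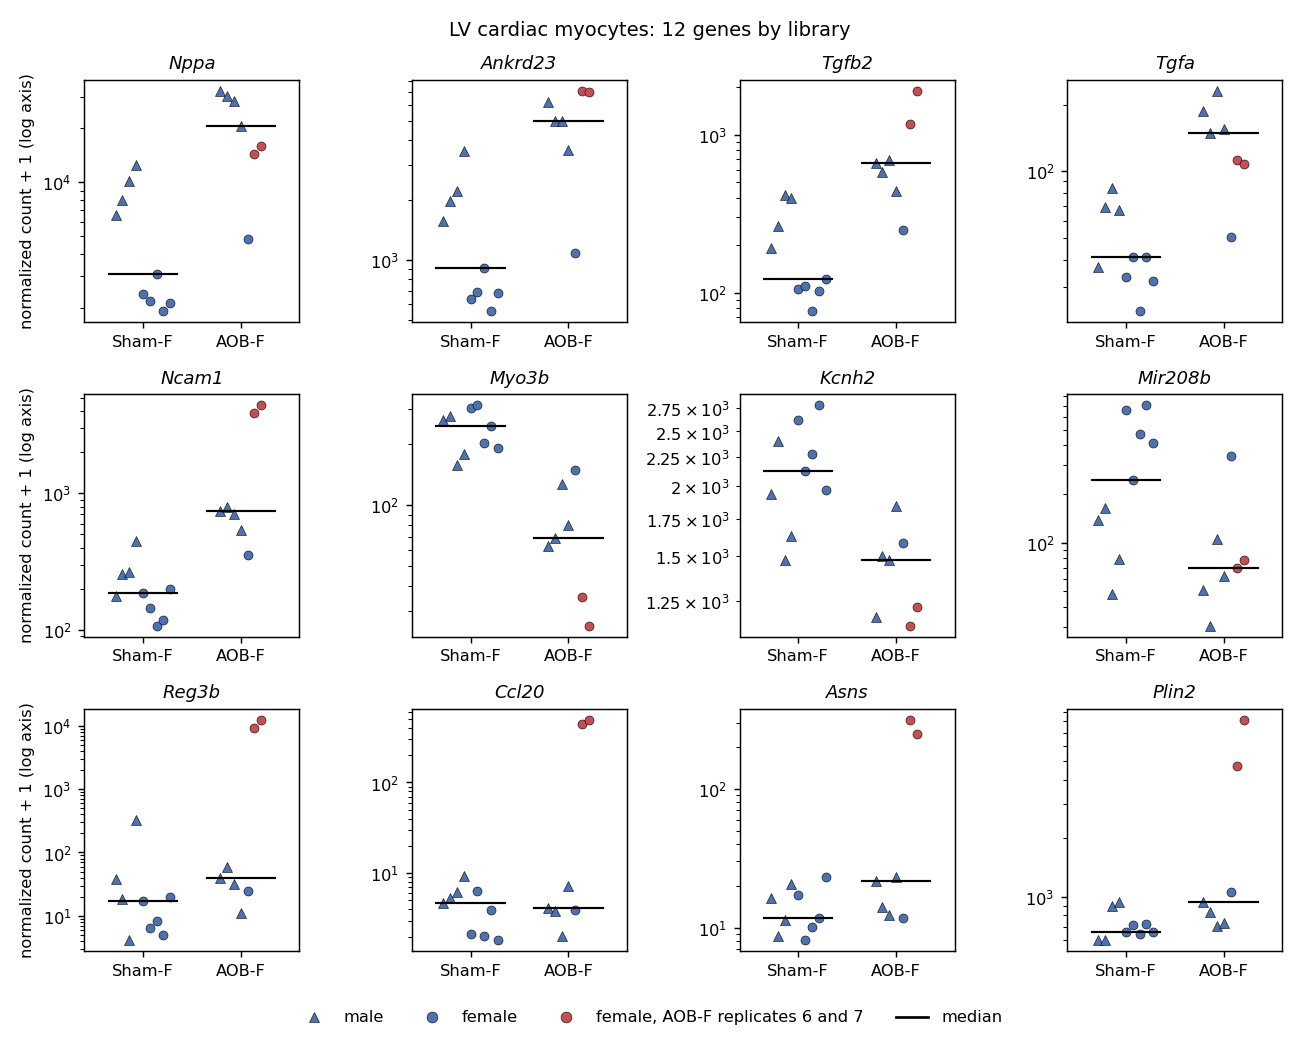
Normalized count + 1 (y axis, log scale) of 12 genes in the 9 Sham-F and 7 AOB-F LV libraries (x axis), with triangles for males, circles for females, red for AOB-F replicates 6 and 7 and a bar at the median. Nppa, Ankrd23, Tgfb2 and Tgfa were raised across the AOB-F animals, with Nppa between 4825 and 32334, whereas Reg3b and Ccl20 were above the sham range in the red points alone.

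Of 14 tested genes that respond to stretch of the myocyte, 5 rose and 1 fell (median 0.55), and without replicates 6 and 7 the test called 2 higher and 1 lower. Ankrd23 and Ankrd1 encode ankyrin repeat proteins bound to titin's spring region that also enter the nucleus. Ankrd23 had 552 to 3534, median 911 normalized counts in Sham-F and 1089 to 7106, median 5001 in AOB-F, and only female replicate 5, at 1089, lay within the pooled sham range (1.82 ± 0.35, adjusted p = 0.000448; 1.56 and 0.0196 without replicates 6 and 7). Ankrd1 had 11780 to 38375, median 14938 in Sham-F and 27036 to 59210, median 30994 in AOB-F, where replicates 1 and 2 were above every sham (0.89 ± 0.21, adjusted p = 0.00375). Xirp2, a Xin repeat protein that binds actin at the intercalated disc, rose (1.17 ± 0.33, adjusted p = 0.0123) with the highest values in male replicates 1 and 2 and female replicate 7 (12481, 8130 and 8144), and gave 1.12 without replicates 6 and 7 (adjusted p = 0.0623). Fhl1, a LIM domain protein at the sarcomere, rose by more (1.21 ± 0.22, adjusted p = 0.000176), but 18820 and 23049 in replicates 6 and 7 stood far above 4079 to 7883 in the other AOB-F libraries, and without them it gave 0.42 (adjusted p = 0.0889). Tceal7, an elongation factor-like gene, did not pass (1.04 ± 0.42, adjusted p = 0.083).

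TEAD factors, through which YAP acts, bind CATTCC, and the promoters of Ankrd23 and Ctgf are shown because these genes rose and carry that string. Both are the 200 bases before the transcription start in RefSeq on GRCr8, with each CATTCC, or GGAATG where it lies on the opposite strand, in capitals. Ankrd23 is at chr9:46274511-46274710, minus strand, and Ctgf, named Ccn2 in RefSeq, at chr1:22624615-22624814, minus strand.
Ankrd23: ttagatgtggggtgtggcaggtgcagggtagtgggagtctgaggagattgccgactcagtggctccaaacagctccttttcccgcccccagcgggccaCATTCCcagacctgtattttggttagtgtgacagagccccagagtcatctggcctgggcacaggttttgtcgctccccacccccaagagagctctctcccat
Ctgf: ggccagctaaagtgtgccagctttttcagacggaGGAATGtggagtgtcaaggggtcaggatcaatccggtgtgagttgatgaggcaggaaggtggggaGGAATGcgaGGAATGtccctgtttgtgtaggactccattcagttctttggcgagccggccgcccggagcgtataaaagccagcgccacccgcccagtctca
Ankrd23 held the string once, 102 bases before its start, and Ctgf held it 3 times, between 166 and 92 bases before its start. Counting both strands and windows from 250 bases before to 50 after the start, 14.2% of all 33469 promoters held it, against 15 of 44 (34.1%) in the natriuretic, stretch-responsive and TGF-beta lists and 18 of 71 (25.4%) in the chemokine and inflammation lists described below. These counts cover the listed genes with a promoter in the RefSeq table, tested or not (44 of 54 in the count table for the first 3 lists, 71 of 87 for the other two). Of the 13 called members of the natriuretic, stretch-responsive and TGF-beta lists 11 had a promoter in the table, and 5 of these held the string. The string was chosen after the gene values were seen, and a match describes the letters and not binding.

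Ligands of the TGF-beta and EGF families were among the genes that rose. Tgfb2, a TGF-beta isoform made by myocytes, had 190.3 to 413 normalized counts in Sham-F males and 439.5 to 689.6 in AOB-F males, 75.5 to 120.4 in Sham-F females and 249 to 1905 in AOB-F females. No AOB-F animal overlapped the shams of its sex, and the log2 fold change was 2.04 ± 0.35 (adjusted p = 7.06e-05; 1.41 and 0.0199 without replicates 6 and 7). Ctgf, a matricellular protein induced by TGF-beta and by stretch, had 1423 to 3727, median 2255 in Sham-F and 3858 to 7934, median 5200 in AOB-F with no overlap (1.07 ± 0.25, adjusted p = 0.0025). Inhba, the activin A subunit, and Bmp2 rose too (1.15 ± 0.36 and 1.08 ± 0.30, adjusted p = 0.0229 and 0.0109), and their groups overlapped. In this family 4 of 21 tested genes rose and none fell, and 2 rose without replicates 6 and 7. Tgfa, a membrane-bound ligand of the EGF receptor, had 22.4 to 83.5, median 40.1 in Sham-F and 49.5 to 229.9, median 148 in AOB-F, and 6 of 7 AOB-F libraries exceeded the highest sham (1.59 ± 0.40, adjusted p = 0.00495; 1.72 without replicates 6 and 7). Hbegf, another EGF receptor ligand, rose by less (0.67 ± 0.16, adjusted p = 0.00335), and Fgf16, a fibroblast growth factor of the heart, fell (-0.57 ± 0.19, adjusted p = 0.0337). Without replicates 6 and 7, Inhba, Bmp2, Hbegf and Fgf16 gave 0.93, 0.50, 0.49 and -0.38 and were not called (adjusted p = 0.158, 0.37, 0.0889 and 0.278), whereas Tgfb2, Ctgf and Tgfa were. Of 30 growth factor and receptor genes of the EGF, FGF and VEGF families, 4 rose and 1 fell, and 4 rose without replicates 6 and 7.

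Of 42 matricellular, provisional matrix and matrix-modifying genes, 12 rose and none fell (median 0.54), 38 of the 42 were above 0, and 2 rose without replicates 6 and 7. Thbs4, a thrombospondin induced by pressure overload, had 2.46 to 21.4, median 12.7 normalized counts in Sham-F and 23.7 to 140.3, median 32.8 in AOB-F with no overlap, the highest in replicate 2 (2.20 ± 0.71, adjusted p = 0.0305). Tnc, or tenascin C, of healing wounds and border zones, was at 5.88 to 60.5, median 18.5 in Sham-F, at 26.2 to 227 in AOB-F replicates 1 to 5 and at 790.3 and 1082 in replicates 6 and 7. Its log2 fold change was 3.96 ± 0.61 (adjusted p = 1.52e-05) and 1.96 without those replicates (adjusted p = 0.0226). Postn and Fn1, which encode periostin and fibronectin, rose (2.52 ± 0.56 and 0.92 ± 0.29, adjusted p = 0.00175 and 0.0249). Without replicates 6 and 7, Thbs4, Postn and Fn1 gave 2.42, 1.55 and 0.72 (adjusted p = 0.0599, 0.0964 and 0.155). Spp1, the gene of osteopontin, reached 5034 in replicate 7 and 883 in replicate 6 and 21.4 to 150.5 in the others, against 1.78 to 248, median 27.4 in Sham-F, so that 4.12 (adjusted p = 0.0019) became 0.11 (adjusted p = 0.959) without them. Of 13 collagens 1 fell and none rose, and the fibrillar genes Col1a1 and Col3a1 gave 0.16 ± 0.33 and 0.46 ± 0.33 (adjusted p = 0.78 and 0.365). The collagen that fell, Col11a2, a chain of a minor fibrillar collagen, had 102 to 333, median 251 in Sham-F and 43.7 to 189, median 66.4 in AOB-F, with 5 of 7 under the lowest sham (-1.37 ± 0.29, adjusted p = 0.00128).

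Attachment and cytoskeletal genes rose in part. Ncam1, the neural cell adhesion molecule that failing myocytes are known to carry at the intercalated disc, had 106 to 446, median 185 normalized counts in Sham-F. In AOB-F it had 349.6 to 792 in replicates 1 to 5 and 3889 and 4418 in replicates 6 and 7. Every AOB-F animal exceeded the shams of its sex, and the log2 fold change was 2.96 ± 0.46 (adjusted p = 1.52e-05) or 1.58 (adjusted p = 0.0199) without replicates 6 and 7. Of 40 actin cytoskeleton, costamere and integrin genes, 15 rose and none fell (median 0.29), and 3 rose without those libraries. Of 16 intercalated disc genes 5 rose, and 2 rose and 1 fell without them. Tpm2, beta-tropomyosin, had 67.9 to 123, median 112 in Sham-F and 129 to 301, median 156 in AOB-F (0.73 ± 0.23, adjusted p = 0.0239). Myo1f, a class I myosin best known from leukocytes, had 53.9 to 71.2, median 61.2 in Sham-F and 78.7 to 312, median 122 in AOB-F, highest in replicate 7 (1.22 ± 0.26, adjusted p = 0.00157). Without replicates 6 and 7 these gave 0.48 and 0.78 (adjusted p = 0.263 and 0.0625). Steap2, a metalloreductase of endosomes, had 103 to 248, median 173 in Sham-F and 256 to 624, median 352 in AOB-F (1.06 ± 0.19, adjusted p = 0.00014; 0.85 and 0.0182 without replicates 6 and 7). Gtf3c6, a subunit of the RNA polymerase III factor TFIIIC, and Sept6, a septin, rose by 0.60 and 1.37 (adjusted p = 0.00291 and 0.00415), the latter at only 4.62 to 31.1 normalized counts over the 16 libraries.

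Among the genes that fell most and kept their call without replicates 6 and 7 were a myosin, an ion pump and enzymes of metabolism. Myo3b, a class III myosin that carries a kinase domain, had 158 to 310.1, median 245 normalized counts in Sham-F and 24.5 to 149, median 67.8 in AOB-F. No AOB-F library reached the lowest sham, with replicates 6 and 7 lowest and replicate 5 highest (-1.61 ± 0.35, adjusted p = 0.00158; -1.29 and 0.0332 without replicates 6 and 7). Atp4a, the alpha subunit of the proton-potassium pump, had 78.6 to 141, median 119 in Sham-F and 22.6 to 67, median 42.8 in AOB-F, also without overlap (-1.25 ± 0.27, adjusted p = 0.00149). Pfkfb1, an isoform of the enzyme that sets the level of fructose 2,6-bisphosphate, had 93.6 to 158, median 100 in Sham-F and 27.9 to 93.4, median 52.8 in AOB-F, so that the groups only just parted (-0.95 ± 0.26, adjusted p = 0.0106). Acot11, an acyl-CoA thioesterase, Ybx2, a Y-box protein that binds RNA, and Crhr2, the urocortin receptor, fell by 1.02, 1.17 and 1.0 on the log2 scale (adjusted p = 0.00098, 0.000845 and 0.00244), and each was also called without replicates 6 and 7. Dcdc5 and Ccdc63 fell likewise (-1.42 ± 0.33 and -1.39 ± 0.34, adjusted p = 0.00298 and 0.00465), with Dcdc5 at 244 in AOB-F replicate 5 and at 26.9 to 76.3 in the other AOB-F libraries.

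Of 18 potassium channel subunits tested, 4 fell and none rose (median -0.29), and 3 of the 4 were still called without replicates 6 and 7. Kcnh2, the pore of the rapid delayed rectifier current, had 1478 to 2781, median 2130 normalized counts in Sham-F and 1129 to 1842, median 1475 in AOB-F, with 4 of 7 under the lowest sham (-0.59 ± 0.13, adjusted p = 0.00168). Kcnq1, the pore of the slow delayed rectifier, had 2415 to 5493, median 4365 and 1955 to 3639, median 2613 (-0.56 ± 0.12, adjusted p = 0.00133). Kcnd3, a pore of the transient outward current, had 413 to 1089, median 755 and 303 to 768, median 403 (-0.76 ± 0.17, adjusted p = 0.0025). In Kcnq1 and Kcnd3 the groups overlapped widely, and AOB-F replicates 3 and 5 were the highest of their group. Kcnj12, an inward rectifier, fell by 0.45 on the log2 scale (adjusted p = 0.0117), and was the member lost without replicates 6 and 7 (-0.33, adjusted p = 0.143). The other transient outward pore, Kcnd2, and its partner Kcnip2 gave -0.15 ± 0.16 and -0.48 ± 0.22 (adjusted p = 0.574 and 0.129).

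Calcium cycling genes moved little. Atp2a2 (the sarcoplasmic reticulum calcium pump), Ryr2 (the release channel) and Pln (phospholamban, which inhibits the pump) gave -0.04 ± 0.17, 0.01 ± 0.16 and -0.04 ± 0.15 (adjusted p = 0.888, 0.972 and 0.902). Of 18 genes of calcium cycling and excitation-contraction coupling, 1 rose and 2 fell. The genes that fell were S100a1, a calcium-binding protein that enhances pump and release channel, and Jph2, which tethers the reticulum to the T-tubule (-0.64 ± 0.17 and -0.59 ± 0.17, adjusted p = 0.00644 and 0.0115). They were not called without replicates 6 and 7, where they gave -0.48 and -0.33 (adjusted p = 0.101 and 0.195). S100a1 had 355 to 545, median 419 normalized counts in Sham-F and 156 to 419, median 249 in AOB-F, and 6 of 7 lay under the lowest sham. The gene that rose, Nos1, the neuronal nitric oxide synthase, was at 28.9 to 57.7, median 36.9 in Sham-F and at 94.7 to 208 in the 4 AOB-F males, but at 22.1 to 49.5 in the 3 AOB-F females. Its log2 fold change was 1.31 ± 0.40 (adjusted p = 0.02), 1.57 in males and 0.10 in females, and the difference between the sexes did not pass the test (adjusted p = 0.122).

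In adrenergic signalling 2 of 30 genes rose and 4 fell. Grk5, a kinase that uncouples adrenergic receptors, and Rgs2, which shortens Gq signalling, rose (0.89 ± 0.21 and 0.95 ± 0.25, adjusted p = 0.00312 and 0.0075), and neither was called without replicates 6 and 7 (0.32 and 0.59). Adra1b, an alpha-1 receptor, and Pde4a, a phosphodiesterase that breaks down cAMP, fell (-0.46 ± 0.14 and -0.49 ± 0.12, adjusted p = 0.0206 and 0.00561). The beta-1 receptor gene Adrb1 gave -0.10 ± 0.16 (adjusted p = 0.708). Rcan1, a feedback inhibitor induced by calcineurin, rose (0.49 ± 0.17, adjusted p = 0.0451), and Hdac5, a histone deacetylase that restrains MEF2, had 2963 to 7066, median 5604 in Sham-F and 2498 to 4527, median 3809 in AOB-F (-0.54 ± 0.14, adjusted p = 0.0062). Trim63, the atrophy ubiquitin ligase MuRF1, fell (-0.68 ± 0.18, adjusted p = 0.00654), and the other atrophy ligase gene, Fbxo32, gave -0.25 ± 0.13 (adjusted p = 0.204). Of these, Hdac5 was also called without replicates 6 and 7 (adjusted p = 0.025), and Adra1b, Pde4a, Rcan1 and Trim63 were not (adjusted p = 0.191, 0.106, 0.284 and 0.0546).

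Reads on microRNA loci were mostly lower in AOB-F. Of 64 such loci tested, 9 fell, 1 rose and 53 were below 0 (median -0.44, against 0.0378 over all genes; -0.59 without replicates 6 and 7, where 4 of the 64 were called). The libraries were of total RNA after ribosomal RNA depletion, so these counts are reads of longer transcripts over the hairpin loci and not mature microRNAs, and reads of a host or antisense transcript cannot be told apart from those of the locus where strand was not used in counting, which is not given in the sources used here. The mature sequences are shown for 2 loci that fell and for the myosin intron microRNA miR-499, from RefSeq on GRCr8, with the seed (bases 2 to 8) in capitals.
rno-miR-208b-3p: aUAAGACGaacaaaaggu
rno-miR-499-5p: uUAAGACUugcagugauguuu
rno-miR-1b: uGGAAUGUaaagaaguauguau
Mir208b (chr15:32421648-32421665, minus strand for the mature arm) lies within the slow myosin gene Myh7, and its seed UAAGACG and the miR-499 seed UAAGACU share their first 6 bases. Mir208b had 47.4 to 704, median 242 normalized counts in Sham-F and 29.7 to 341, median 68.8 in AOB-F, where replicate 5 was far above the others (-1.63 ± 0.40, adjusted p = 0.00403; -1.47 and 0.0509 without replicates 6 and 7). Myh7 itself, as given above, had a positive log2 fold change that did not pass the test. Mir1b, at chr3:187864736-187864757, plus strand, had 40.2 to 334, median 140.3 and 32.3 to 145, median 65 (-1.35 ± 0.36, adjusted p = 0.00859). Mir499 gave -0.52 (adjusted p = 0.541). In all 3 loci the groups overlapped.

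**Figure D4:**
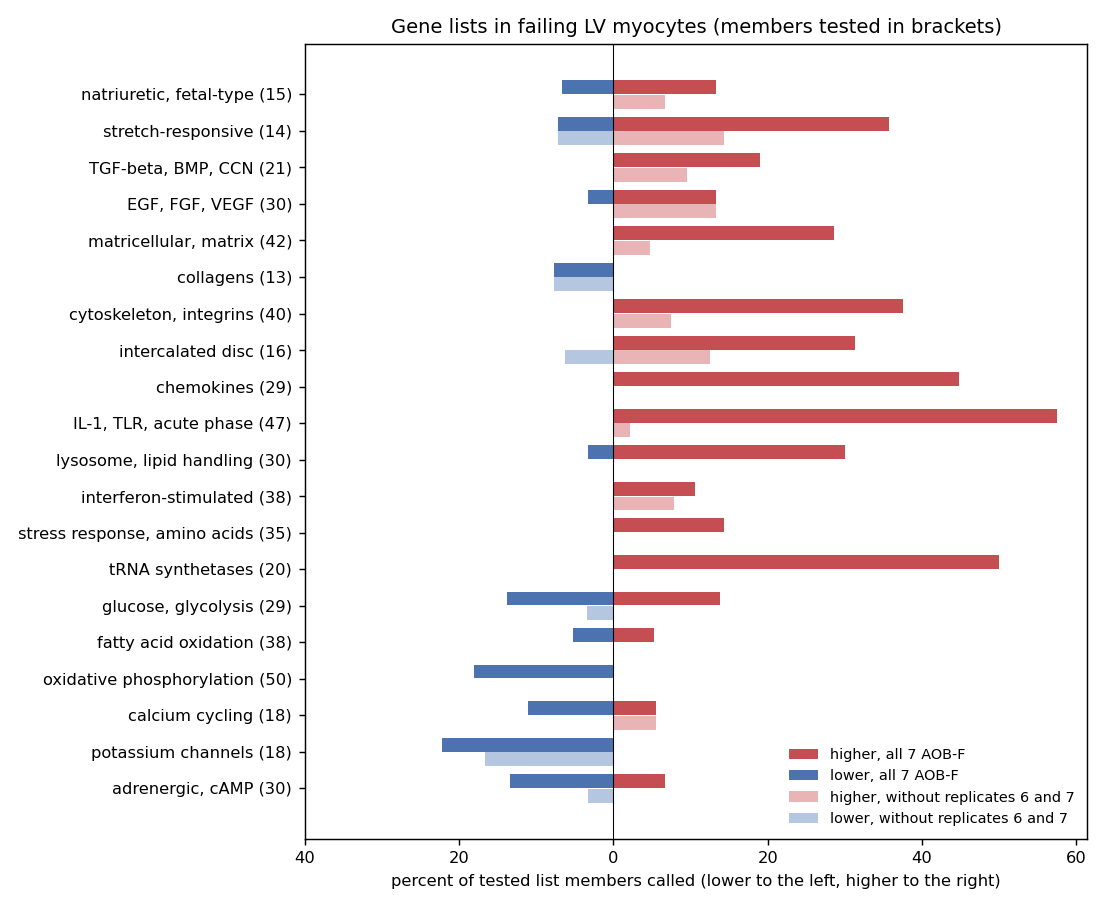
Percent of the tested members of 20 gene lists that were called (x axis, lower to the left and higher to the right) in AOB-F against Sham-F LV myocytes, with all libraries in dark and without AOB-F replicates 6 and 7 in pale bars, and the number tested in brackets. The interleukin and acute-phase list shrank from 27 of 47 to 1 and the tRNA synthetases from 10 of 20 to 0, while the potassium channels went from 4 of 18 to 3.

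Genes of inflammation rose in number, and nearly all of these calls were lost without replicates 6 and 7. Of 29 chemokine and receptor genes 13 rose (median 0.96) and of 47 interleukin 1, toll-like receptor, NF-kappa-B and acute-phase genes 27 rose (median 0.82). Without those libraries 0 and 1 were called, with medians of 0.38 and 0.32. In the same 2 libraries the pan-leukocyte and macrophage marker shares given above were highest, and 8 of 16 pan-leukocyte and 7 of 14 macrophage genes rose, with 0 and 1 called without them. The part of leukocytes in these results was not tested. Reg3b, a secreted lectin of the acute phase, reached 9126 and 12440 normalized counts in replicates 6 and 7, was at 10 to 58.5 in replicates 1 to 5 and at 3.09 to 323, median 16.2 in Sham-F (6.00 ± 1.03, adjusted p = 7.06e-05; -0.59 without them). Ccl20, a chemokine that draws CCR6-bearing cells, had 442 and 488 in those replicates and 1.03 to 6.16 in the others, against 0.819 to 8.38, median 3.69 in Sham-F (5.16 ± 0.79, adjusted p = 1.46e-05). In both genes the other 5 AOB-F animals lay within the sham range. Cxcl2, which draws neutrophils, differed in that male replicate 2 also stood out, at 227, beside 319 and 449 in replicates 6 and 7 and 36.1 to 93.1, median 54.4 in Sham-F (1.66 ± 0.41, adjusted p = 0.00508; 0.74 and 0.308 without them).

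The monocyte chemokines Ccl2 and Ccl7 rose by 1.53 and 2.12 (adjusted p = 0.00306 and 0.000643) and gave 0.41 and 0.56 without replicates 6 and 7. Il1b, the gene of interleukin 1 beta, had 504 normalized counts in replicate 7 and 210.5 in replicate 6, against 16.7 to 60.5, median 39.2 in Sham-F (1.78 ± 0.45, adjusted p = 0.00579). Itgam and Itgb2, the chains of the leukocyte integrin Mac-1, rose by 2.37 and 2.18 (adjusted p = 0.00098 and 0.00375), and the lysozyme gene Lyz2 by 2.12 (adjusted p = 0.0019). None of these 6 genes was called without replicates 6 and 7. Selp, the P-selectin of activated endothelium and platelets, and Hamp, which encodes the iron hormone hepcidin, rose by 3.50 and 2.78 (adjusted p = 1.46e-05 and 6.54e-05), with 382 and 509 and 315 and 314 in those replicates, and gave 0.98 and 0.83 without them. Gpnmb, a glycoprotein of lipid-laden macrophages, had its highest values in replicates 7, 6 and 2 (4669, 1643 and 1104) and rose by 2.73 ± 0.52 (adjusted p = 0.000382; 1.26 and 0.0688 without replicates 6 and 7). The macrophage pore gene Mpeg1 was the exception among the macrophage markers, with 9.8 to 80.5, median 26.6 in Sham-F, 166 and 149.6 in male replicates 1 and 2 and 69.6 and 174 in replicates 6 and 7, and it was called either way (1.64 and 1.54, adjusted p = 0.00561 and 0.0299).

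NF-kappa-B dimers bind sites such as GGG, any 2 bases and TTTCC, and the promoters of Cxcl2 and Ccl20 are shown because both rose in replicates 6 and 7 and hold that string. Each is the 200 bases before the start in RefSeq on GRCr8, at chr14:17467256-17467455, minus strand, and chr9:91836959-91837158, plus strand, with matches on either strand (GGAAA, any 2 bases and CCC on the opposite one) in capitals.
Cxcl2: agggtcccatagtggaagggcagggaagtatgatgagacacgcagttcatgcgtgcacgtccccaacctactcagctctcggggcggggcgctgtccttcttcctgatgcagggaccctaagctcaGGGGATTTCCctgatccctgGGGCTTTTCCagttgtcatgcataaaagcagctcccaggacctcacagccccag
Ccl20: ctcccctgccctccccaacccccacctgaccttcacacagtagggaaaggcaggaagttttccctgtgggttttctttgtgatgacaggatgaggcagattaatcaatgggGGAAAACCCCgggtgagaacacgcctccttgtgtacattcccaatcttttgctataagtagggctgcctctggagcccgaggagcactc
Cxcl2 held it 2 times, at 74 and 54 bases before its start, and Ccl20 once, at 89 bases. In the wider windows given above it was in 1.53% of all promoters, in 11 of 71 (15.5%) of the chemokine and inflammation lists and in 7 of the 34 called members (of 40) that had a promoter in the table. This string too was chosen after the gene values were seen, as was that for ATF4 below. The lists were put together by function, and the inflammation list includes NF-kappa-B genes by its definition. The shares of this and the other strings therefore describe these lists and test no factor.

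Amino acid and lipid genes showed the same dependence on 2 libraries. Of 20 cytosolic aminoacyl-tRNA synthetases 10 rose (median 0.40) and of 35 integrated stress response, one-carbon and amino acid genes 5 rose, and none of either list was called without replicates 6 and 7. Asns, the asparagine synthetase that ATF4 induces, had 312 and 247 normalized counts in replicates 6 and 7, 10.7 to 22.3 in the others and 7.13 to 22.1, median 10.8 in Sham-F (2.77 ± 0.50, adjusted p = 0.000175; 0.24 without them). Mthfd2, of mitochondrial one-carbon metabolism, Bcat1, which transaminates branched-chain amino acids, and Slc7a5, a leucine transporter, rose by 1.69, 2.51 and 0.92 (adjusted p = 0.000926, 0.000101 and 0.00648), and gave 0.39, 0.71 and -0.24 without those libraries. Atf4 itself gave -0.02 ± 0.13 (adjusted p = 0.931). The 20 synthetases together took 0.203 and 0.194% of the counts in replicates 6 and 7, 0.135 to 0.152% in the other AOB-F libraries and 0.13 to 0.149% in Sham-F. Tars, for threonine, had 205 to 394, median 223 in Sham-F and 216 to 546, median 394 in AOB-F, with replicates 1, 2, 6 and 7 at 426, 394, 546 and 511 (0.64 ± 0.14, adjusted p = 0.00166; 0.41 and 0.0933 without replicates 6 and 7). Nars, for asparagine, rose by 0.62 ± 0.17 (adjusted p = 0.00803; 0.52 and 0.0889). Sites at which ATF4 acts have the form TGATGNAA, which was in 3.98% of all promoters, in 15 of the 53 listed genes with a promoter in the table (28.3%; 59 were in the count table) and in 6 of the 14 called members (of 15) that had one. The promoter of Tars, named Tars1 in RefSeq, holds it 27 bases before the start and on the opposite strand (TTNCATCA), in capitals in the 200 bases at chr2:62114803-62115002, minus strand.
Tars: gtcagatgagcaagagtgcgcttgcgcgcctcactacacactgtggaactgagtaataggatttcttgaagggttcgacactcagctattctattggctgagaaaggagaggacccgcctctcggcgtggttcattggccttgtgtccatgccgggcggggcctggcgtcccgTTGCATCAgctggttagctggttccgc

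Plin2, which coats lipid droplets, had 4738 and 8142 normalized counts in replicates 6 and 7, 702 to 1060 in the others and 595 to 933, median 656 in Sham-F (1.78 ± 0.26, adjusted p = 1.46e-05; 0.26 and 0.203 without them). Angptl4, an inhibitor of lipoprotein lipase, rose by 1.93 ± 0.48 (adjusted p = 0.00524), with 391, 885 and 1669 in the 3 AOB-F females and 81.4 to 131 in the males, against 44.2 to 172, median 140.3 in Sham-F. Of 38 fatty acid oxidation genes and regulators, these 2 rose and 2 fell, among the latter the fatty acid carrier Fabp3 (-0.50 ± 0.17, adjusted p = 0.0381). For glucose, the insulin-responsive transporter Slc2a4 fell and the basal transporter Slc2a1 rose (-0.49 ± 0.17 and 0.54 ± 0.14, adjusted p = 0.0437 and 0.00633). Slc2a4 had 4444 and 3300 in replicates 6 and 7 and 11524 to 18766 in the others, the latter within the sham range of 11462 to 22633. None of Angptl4, Fabp3, Slc2a4 and Slc2a1 was called without replicates 6 and 7 (0.36, -0.38, -0.16 and 0.10). Pfkp, the platelet isoform of phosphofructokinase, rose (1.07 ± 0.19, adjusted p = 0.000151; 0.34 without them), and in glycolysis and glucose uptake 4 of 29 genes rose and 4 fell, and 1 fell and none rose without replicates 6 and 7.

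Nuclear-encoded subunits of oxidative phosphorylation leaned lower, with 9 of 50 fallen, none risen and a median of -0.27, and with 8 of the 50 above 0. Uqcrc1, of complex III, had 24403 to 42992, median 30730 normalized counts in Sham-F and 16876 to 34165, median 21614 in AOB-F (-0.43 ± 0.14, adjusted p = 0.0253), and Cox4i1, of complex IV, gave -0.41 ± 0.14 (adjusted p = 0.0472). In both genes the lowest AOB-F values were in replicates 5, 6 and 7, the 3 females, and the groups overlapped. Without replicates 6 and 7 none of the 50 was called and the median was -0.17. The share of counts on the 9 cardiomyocyte markers was lower in the same 2 libraries, and its part in this result was not tested.

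The response of females and males was compared directly, since the libraries that stood apart were female. In 24 of 11954 genes the response differed between the sexes (0.201%), 15 with the higher log2 fold change in females and 9 in males. Reg3b, Ccl20, Plin2 and Angptl4 were among them, with female minus male differences of 10.85 ± 1.69, 7.58 ± 1.48, 2.63 ± 0.48 and 2.83 ± 0.53 on the log2 scale (adjusted p = 0.0141, 0.0407, 0.0324 and 0.0324). In all 24 genes replicates 6 and 7 lay beyond every AOB-F male and every female sham in the direction of the difference. Replicate 5, the third AOB-F female, did so too in 7 of the 15 genes with the higher response in females, Plin2 and Angptl4 among them, and in all 9 with the higher response in males. One of these 9, Wscd1, chosen after its values were seen, had 249.6, 234.2 and 144.1 normalized counts in replicates 5, 6 and 7, 581.7 to 724.3 in AOB-F males and 406.8 to 619.8 in female shams. In Reg3b and Ccl20, by contrast, replicate 5 had 23.3 and 2.91, against 9126 and 442 in replicate 6 and 12440 and 488 in replicate 7. These genes were picked by the same contrast, so the counts describe them only. Without replicates 6 and 7 the AOB-F female arm was 1 library, with its spread taken from the other groups, and edgeR called 0 of the 11954 genes (1026 at an unadjusted p under 0.05). With 1 library in that arm the loss of calls says little about whether the differences go with sex or with these 2 libraries. For Nppa, Tgfa and Ctgf the male and female responses were 1.59 and 2.28, 1.51 and 1.37, and 0.81 and 1.27, and the differences did not pass the test (adjusted p = 0.389, 0.902 and 0.482).

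The same animals' RV, the compensated LV and the failing pressure-loaded RV gave the context of these changes. For the difference between the LV and RV response to AOB, edgeR called 0 genes, with 1161 at an unadjusted p under 0.05, and DESeq2 also called 0. For the failing against the compensated LV edgeR called 0, with 1148 at an unadjusted p under 0.05, and DESeq2 called 36 (33 with the higher value in the failing LV). Nppa gave 1.95 ± 0.51 in the failing LV, 1.38 ± 0.56 in the compensated LV and 2.82 ± 0.53 in the RV of the AOB-F animals. Ankrd23 gave 1.82, 0.71 and 1.56 in the same order, Tgfb2 2.04, 0.80 and 1.11, and Myo3b -1.61, -0.04 and -0.47. Reg3b gave 6.00, 0.03 and 4.67. The RV values include the RV libraries of AOB-F replicates 6 and 7 and are not given without them. In these 2 animals the LV and RV deviations from their group means correlated at 0.462 and 0.592. In the other AOB-F animals they correlated at 0.0817 to 0.41.

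Set against the failing, pressure-loaded RV, the failing LV differed in more genes. The response of the LV to AOB-F and of the RV to PAB-F, each relative to Sham-F of its own ventricle, differed in 377 genes (3.15%), 221 with the higher value in the LV and 156 in the RV. By the labels, PAB-F hearts were taken at 28 weeks and those of Sham-F at 31 weeks of age. Replicates 1 to 4 were male in both groups, and the females were replicates 5 and 6 in PAB-F and 5 to 9 in Sham-F. Sex was not in this fit, and its part in these differences was not tested. Nppa gave 1.95 ± 0.51 in the LV and 6.17 ± 0.60 in the RV (difference -4.22 ± 0.75, adjusted p = 0.00126), and Nppb 0.47 ± 0.22 and 2.45 ± 0.23 (difference -1.98 ± 0.32, adjusted p = 0.000234). Tgfa gave 1.59 ± 0.40 and 3.61 ± 0.45 (difference -2.01 ± 0.60, adjusted p = 0.0463). The natriuretic peptides and Tgfa thus had the larger response in the banded RV. Plin2 and Selp had the larger response in the LV (differences 1.97 ± 0.38 and 2.91 ± 0.78, adjusted p = 0.00416 and 0.0287), where both were highest in AOB-F replicates 6 and 7. Without those 2 libraries 141 genes differed, 68 higher in the LV and 73 in the RV. For Ctgf and Ankrd23 the differences of -0.96 ± 0.36 and -1.36 ± 0.51 did not pass (adjusted p = 0.106 and 0.107).

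**Figure D5:**
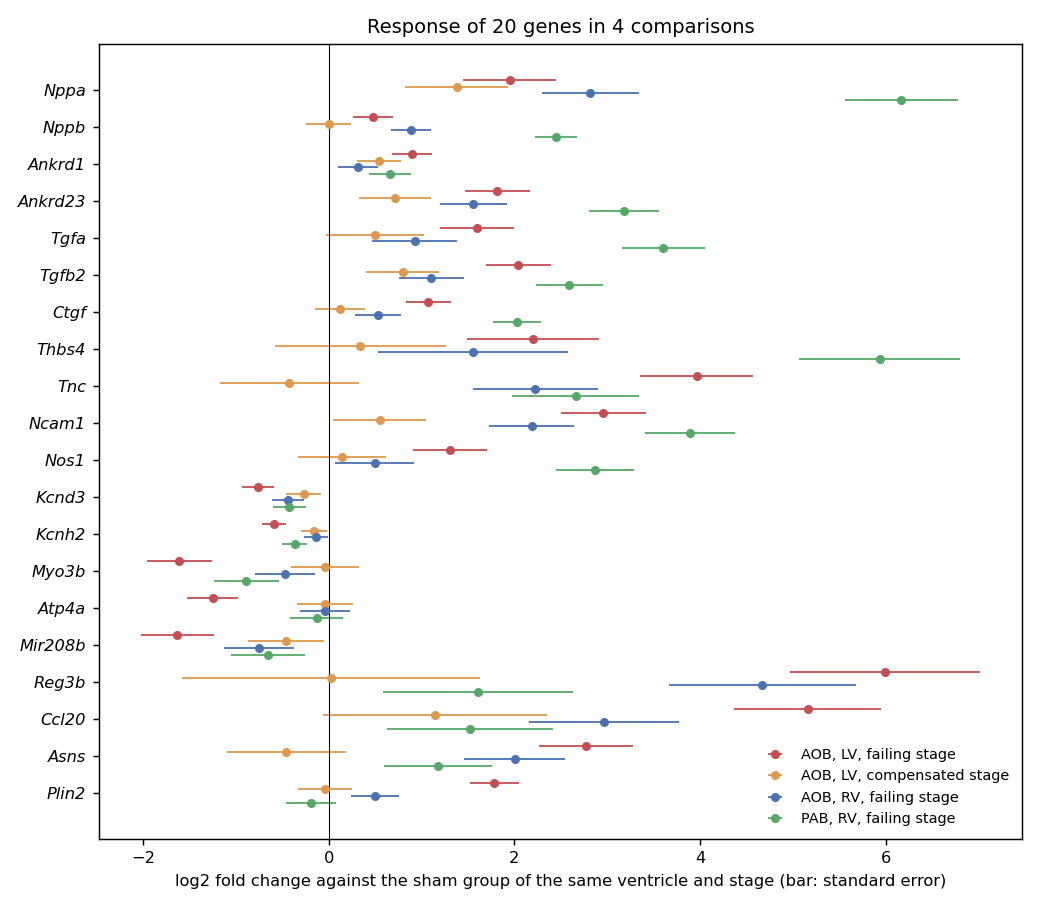
Log2 fold change against Sham of the same ventricle and stage (x axis, bars are standard errors) of 20 genes (y axis) for the failing LV after AOB, the compensated LV after AOB, the RV after AOB and the failing RV after PAB, the last 2 of which share their RV Sham-F libraries. Nppa reached 6.17 in the banded RV against 1.95 in the failing LV, and Reg3b reached 6.00 in the failing LV.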

How the data were processed

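Total RNA of LV cardiac myocytes was sequenced after ribosomal RNA depletion. The submitters' processing notes name Trim Galore, STAR, featureCounts and DESeq2 1.28.1. The authors deposited raw counts per gene, a normalized signal (counts scaled by DESeq2) and FPKM values for 82 libraries, and only the raw counts were used here. A second workbook of the authors' own comparisons was not used. Counts were tested with edgeR 4.0.16 in R 4.3.3: genes were filtered with filterByExpr (11954 of 17337 kept), scaled by TMM and fitted by a quasi-likelihood model over all 82 libraries in 12 groups of ventricle, surgery and stage, with Benjamini-Hochberg adjustment. The study's own criteria, an unadjusted p under 0.01, an absolute log2 fold change of at least 1 and a mean above 50, were counted as well. Sex responses were fitted on the 16 libraries with group and sex combined. Alternatives were the libraries left out in turn, the contrast within each sex in that fit, sex as a covariate in the 16 libraries, other size factors, no filter and DESeq2 1.42.0. No library was dropped or imputed in the main comparison. The scripts were tested on simulated counts. Replicates of a group were separate animals, and no pair of libraries was a duplicate (smallest chi-square per gene 13.1). Promoter and microRNA sequences were matched by gene ID in RefSeq tables of GRCr8 for 9 of the 10 called microRNA loci. The members and gene lists were chosen with earlier results of these data known. Named genes were the 12 that rose and the 12 that fell most among calls kept without AOB-F replicates 6 and 7, the 10 and 10 among calls lost, up to 4 called and 3 first-listed members of each list, and genes the study names for AOB in the LV. Some were left out of the text.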

Additional observations from a re-analysis of the deposited data

Results flagged for a closer look

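Of 226 groups of libraries checked (each named gene or marker list in LV AOB-F and in LV Sham-F), 32 held a library far from all the others of its group. The rule gives about 1 in 20 for normally distributed values. It was run on counts without log transformation, for genes partly chosen from these same values, so no excess over that rate can be read from it. AOB-F replicate 7 was high in Spp1 (5034 normalized counts), Gpnmb (4669), Il1b (504), Cd68 (315), Myo1f (312), Steap2 (624) and Tpm2 (301) and low in Fbxo32 (1571). AOB-F replicate 5 was high in Pln (52417), Dcdc5 (244), Acot11 (1127) and Mir208b (341), replicate 1 in Ankrd1 (59210) and the proliferation gene Mki67 (181), and replicate 2 in Thbs4 (140). Sham-F replicate 4 was high in Fhl1 (6728), Tceal7 (95.9), Tnc (60.5), Spp1 (248), Ncam1 (446), Reg3b (323), Lyz2 (704) and the hexokinase gene Hk3 (28.9). Sham-F replicate 2 was high in Slc2a1 (954), Slc2a4 (22633) and Adra1b (3343), replicate 3 in Tars (394), Nars (621) and Mki67 (101), and replicate 7 in Inhba (45.9) and Col1a1 (5886). Red blood cell markers took 0.0302% of the counts in Sham-F replicate 1.

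Among the named genes 6 had a larger response in females than in males by the test of the difference (edgeR's quasi-likelihood test, Benjamini-Hochberg adjusted). The female minus male differences were 10.85 for Reg3b (adjusted p = 0.0141), 7.58 for Ccl20 (0.0407), 3.97 for the progestin receptor gene Paqr8 (0.0324), 3.89 for the cysteine dioxygenase gene Cdo1 (0.0476), 2.83 for Angptl4 (0.0324) and 2.63 for Plin2 (0.0324) on the log2 scale. All 6 were highest in AOB-F replicates 6 and 7. In Plin2 and Angptl4 the third AOB-F female, replicate 5, also lay above every AOB-F male and every female sham, and in the other 4 it did not. Without replicates 6 and 7 only that 1 female library would remain in the AOB-F arm.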

How the results depend on the processing

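Against 1541 calls, the fit to the 16 LV libraries gave 15. Sex as a covariate, added to that fit of 16 libraries and so to be set against its 15 calls, gave 74. The contrasts within males (0 calls) and within females (2190) also came from a fit to the 16 libraries, with a spread shared by the sexes. They too are not to be set against the 1541. The setting without AOB-F replicates 6 and 7 gave 344, or 359 over the same genes. Leaving out each library in turn gave 751 (without AOB-F replicate 7) to 2511 (without Sham-F replicate 3), with 949 without AOB-F replicate 6. DESeq2 gave 1736, its size factors in edgeR 1569 and no filter 1324. By the study's criteria, 145 genes (130 higher) became 16 in males, 554 in females, 59 without AOB-F replicates 6 and 7 (57 over the same genes) and 251 with a mean over 10, and leaving out each library gave 79 (without AOB-F replicate 7) to 208 (without AOB-F replicate 5), with 206 without Sham-F replicate 3. DESeq2 gave 36 for the failing minus compensated response, where edgeR gave 0, and 682 for the LV AOB-F minus RV PAB-F response against 377, which was 141 without AOB-F replicates 6 and 7, as the 24 female minus male differences became 0 with 1 AOB-F female left. The cause of these shifts was not tested, beyond fewer samples in the smaller fits.

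Replicate numbers did not pair AOB-F with Sham-F animals (correlations of same-numbered deviations from -0.252 to 0.388). With the replicate number as a block in the fit to the 16 LV libraries, 1 gene (Nppa) was called and 47 met the study's criteria. Without the block that fit gave 15 and 135. For the LV minus RV response, where both ventricles came from the same animal, the block by animal gave 0 calls, as without it.

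Of 100 named genes, 86 were called. Direction and status (called or not called) were both kept in 100 under DESeq2, 24 in the fit to the 16 libraries and 39 without AOB-F replicates 6 and 7. These counts include genes that were uncalled in both settings, and the fit to the 16 libraries called only 15 genes in all. Direction turned in the contrast within males for Spp1 (-0.425), Reg3b (-1.49), Ccl20 (-0.631), Ccl27 (-0.358), Slc7a5 (-0.14), Cdo1 (-0.066) and Angptl4 (-0.07). It turned without AOB-F replicates 6 and 7 for Reg3b (-0.577), Ccl27 (-0.43) and Slc7a5 (-0.232), and over the same genes, a setting chosen after seeing the data, for Reg3b (-0.588), Ccl20 (-0.15), Ccl27 (-0.44) and Slc7a5 (-0.238). Low counts, such as those of Ccl20 and Sept6 in Sham-F, limit the precision of their fold changes.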

Other observations

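Of 38 interferon-stimulated genes 4 rose, and 3 rose without AOB-F replicates 6 and 7, with medians of 0.11 and 0.18. Over all genes tested 8.54% rose, or 1.85% without those replicates, which is the reference for the small counts in this paragraph. Of 28 immediate early genes 1 rose, and none of 15 circadian clock genes passed. In 35 cell cycle and DNA replication genes 2 rose, among them Mki67 (1.25 ± 0.41, adjusted p = 0.0344 by edgeR's quasi-likelihood test). Mki67 had 180.5 normalized counts in AOB-F replicate 1, 14.6 to 63.9 in the other AOB-F libraries and 7.45 to 101 in Sham-F. Only replicate 1 thus lay above the sham range. Akip1, which anchors protein kinase A signalling, had 59.8 to 168, median 82 in Sham-F and 122 to 303, median 261 in AOB-F (1.33 ± 0.28, adjusted p = 0.00106) and was called with and without AOB-F replicates 6 and 7 and in the fit to the 16 libraries.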
